A study of Mus musculus with 6 samples.

Results

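The 10 genes Itgae, Itgb7, Itga4, Itgal, Itgb1, Itgb2, Itga6, Itgav, Itgb3 and Itgb8 encode integrin subunits, among those that CD4+ T cells are known to use for adhesion and homing. They were chosen by name, with earlier results of these data known. They are 10 of the 22400 genes with a read in the RNA sequencing of Th9 cultures, and 9 of them passed the filter on low counts that left 12925 genes for testing. Naive CD4+ T cells from the spleen of C57BL/6 mice aged 8 to 10 weeks were cultured for 48 h on anti-CD3 and anti-CD28 with IL-4, TGF-β and anti-IFN-γ, the signals that direct T helper cells towards IL-9 production (Th9). The 3 WT samples came from mice with a functional Cul5 gene, which the study's methods describe for most experiments as Cul5fl/fl littermates without Cre, and the 3 Cul5 cKO samples came from Cul5fl/fl mice that carry CD4-Cre. Cul5 encodes cullin 5, the scaffold of a family of ubiquitin ligases. CD4-Cre acts in the thymus and so deletes the gene in CD8+ as well as CD4+ T cells. The sex of the donor mice, and whether the 3 samples of a genotype came from separate mice or cultures, are not given in the sources used here, so p-values measure the spread between these samples, which may be technical.

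Integrins are cell surface receptors made of 1 α and 1 β subunit, and a subunit that finds no partner is in general not carried to the surface. The α chain largely sets which ligand is bound, and 1 β chain can serve several α chains, so that a cell's set of integrins depends on the levels of both. In T cells αLβ2 (LFA-1) binds ICAM-1 on other cells, α4β1 (VLA-4) binds VCAM-1 and fibronectin, α4β7 binds MAdCAM-1 on gut vessels, and αEβ7 (CD103) binds E-cadherin on epithelium. TGF-β is a known inducer of Itgae, and αv integrins can in turn release active TGF-β from its latent form.

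Depth was between 23111689 and 23454552 estimated counts in 5 libraries and 3944803 in WT replicate 3. Levels are given as CPM, counts brought to a common library total with TMM scaling, and 3 counts correspond to 0.759 CPM in WT replicate 3 and to between 0.128 and 0.133 CPM elsewhere. Cul5 was at 66.2 ± 2.67 CPM in WT and 12.6 ± 1.82 in Cul5 cKO (SD, n = 3 each; edgeR adjusted p = 0.000992), in the direction the labels give. The T cell markers added up to between 1546 and 1659 CPM in WT and to between 1399 and 1456 in Cul5 cKO, with none near 0, so the sum was lower in every Cul5 cKO library, and Il9 was between 298 and 355 CPM in WT and between 729 and 1021 in Cul5 cKO. Spi1, which encodes the Th9 factor PU.1, was at or near 0 in WT, with at most 0.213 CPM, and at 0.130, 6.05 and 1.24 CPM in Cul5 cKO replicates 1, 2 and 3. Cul5 cKO replicate 2 stood apart in its mast cell and basophil markers, which summed to 24.7 CPM there and to at most 0.756 elsewhere, and Cul5 cKO replicate 3 in its B cell markers, with 50.2 CPM against at most 19.8 in the others. Replicate 1 of both genotypes stood apart as well: the dispersion between them across genes was 0.0181, below the 0.0313 between WT replicates 1 and 2 and the 0.0314 between Cul5 cKO replicates 1 and 2, whereas replicates 2 and 3 differed by 0.0115 in WT and 0.0112 in Cul5 cKO. In bulk RNA, fewer cells of a kind and less RNA per cell cannot be told apart.

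Levels of different genes are compared here as TPM, a measure that also corrects for transcript length. Itgb2, the β chain of LFA-1, had the highest TPM summed over its transcripts, at 276 ± 38.5 in WT (SD, n = 3). It was followed by the α chain Itgal at 160 ± 23.7, Itgb7 at 92.5 ± 14.1, Itgb1 at 57.3 ± 3.96 and Itga6 at 57.1 ± 11.0. The lower part of the order held Itgav at 26.9 ± 6.66, Itga4 at 19.5 ± 2.92, Itgae at 8.52 ± 1.84 and Itgb3 at 8.21 ± 3.20, with Itgb8 close to 0. In Cul5 cKO the order of the means of summed TPM was the same. For Itgb2 the sums include transcripts annotated as bound for decay (nonsense-mediated decay). In WT replicate 3 these were at 93.5 and 35.0 TPM and the main coding transcript of Itgb2 at 104. That coding transcript was at 153 and 210 TPM in WT replicates 1 and 2. The first place of Itgb2 is thus given for summed TPM. For Itgb7 the sums include a 449-base transcript with a retained intron, at 35.6, 28.0 and 8.06 TPM in WT replicates 1, 2 and 3. On the main coding transcripts alone, Itgb7 was at 54.5 to 63.0 TPM in WT and Itgb1 at 48.7 to 59.8, which overlapped. In Cul5 cKO these were 45.7 to 53.1 TPM for Itgb7 and 60.2 to 73.2 for Itgb1. On that scale Itgb1 was the higher in every Cul5 cKO library. The ranges of summed TPM of Itgb1 and Itga6, of Itgav and Itga4 and of Itgae and Itgb3 overlapped in WT. The order within these pairs is thus not resolved on this scale. For Itga6 the sums include a non-coding transcript at 19.3 to 28.2 TPM in WT. Its main coding transcript was at 20.5 to 26.7 TPM in WT, below that of Itgb1 in every WT library. In Cul5 cKO the ranges of summed TPM of Itgb7 and Itgb1 overlapped, as did those of Itgae and Itgb3. There Itgb1, at 69.2 ± 7.53 summed TPM, lay above Itga6, at 37.4 ± 5.14, in every library. Itgav, at 25.9 ± 2.52, likewise lay above Itga4, at 10.5 ± 1.71. On the main coding transcripts alone, Itga4 was at 15.3 to 20.3 TPM in WT and Itgav at 11.4 to 14.4. Itga4 was then the higher in every WT library. In Cul5 cKO these were 8.35 to 11.0 TPM for Itga4 and 14.4 to 17.0 for Itgav, with Itgav the higher in every library. The order of Itgav and Itga4 thus depended on the transcripts counted.

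**Figure D1:**
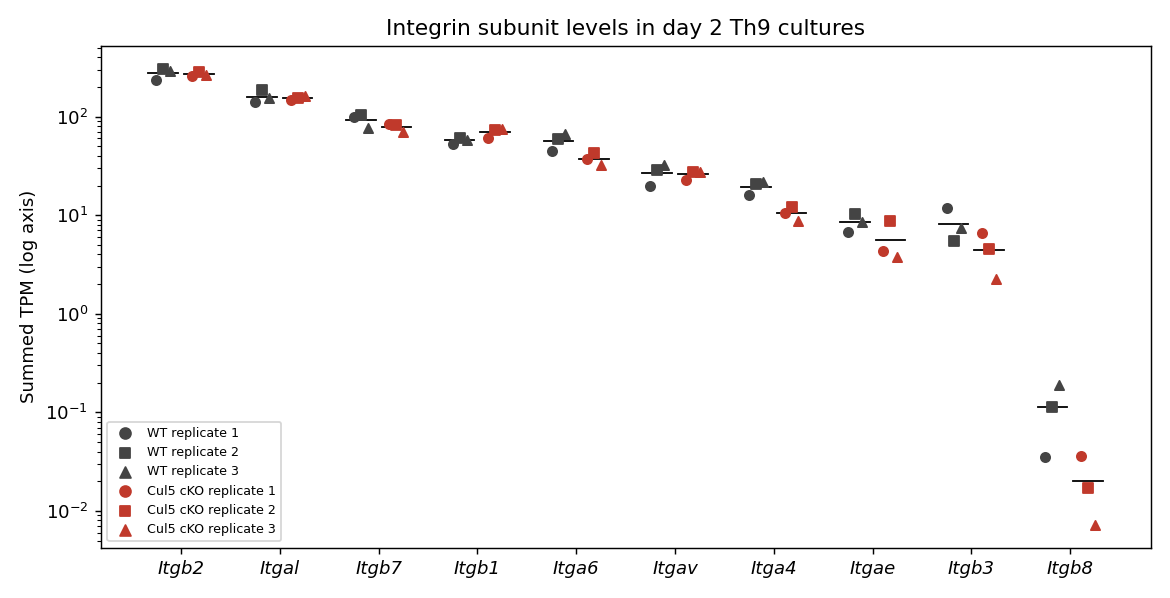
TPM of the 10 integrin genes on a log axis, with 1 point per library, a bar at the group mean and WT and Cul5 cKO side by side. Itgb2 and Itgal are at the top in both genotypes and Itgb8 is near 0, and the 2 genotypes keep 1 order of means of summed TPM.

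The comparison between genotypes asks which integrin transcripts differ when Th9 cells lack Cul5. Itga4 was the 1 member called, and it was lower in Cul5 cKO. At an adjusted p under 0.05 the background was 1.03% of all genes tested (133 of 12925), of which 0.418% were lower and 0.611% higher, and the median log2 fold change over all genes was -0.01. Over the 9 members tested, 7 fold changes were below 0 and 2 above, with a median of -0.24. Over all genes tested, 6615 were below 0 and 6310 above. In CPM the groups did not overlap for 5 members, beside 27.5% of all genes (13.5% lower and 14.0% higher). Of the 5, Itga4, Itga6 and Itgb7 were lower and Itgb1 and Itgav higher in Cul5 cKO. These same 5 had an unadjusted p under 0.05, against 21.3% of all genes (10.4% lower and 10.9% higher). The separation depended on the scale. Itgb7 and Itgav overlapped in the authors' log2 CPM, and Itgb7, Itgav and Itgb1 overlapped in summed TPM. Itga4 and Itga6 stayed apart on all of these scales. DESeq2 called 3 members, Itga4, Itga6 and Itgb1, beside 5.36% of all genes. The members were chosen with earlier results of these data known, so these counts are a description and were given no test.

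**Figure D2:**
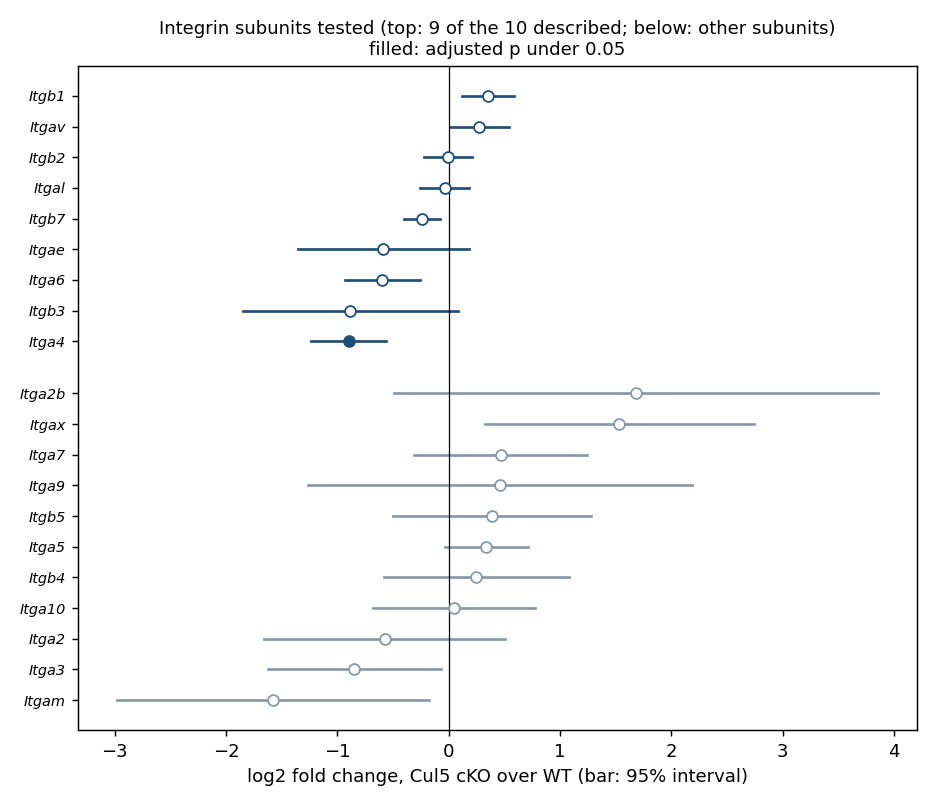
Log2 fold change (Cul5 cKO over WT) of the 9 members tested, with 95% intervals from edgeR's quasi-likelihood fit and a line at 0. Below them are the same values for the 11 other integrin subunits tested. Itga4 is the 1 member past the adjusted threshold, and the intervals of Itgal and Itgb2 lie around 0.

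Itga4 encodes α4, the chain shared by α4β1 and α4β7. It stood at 109, 133 and 153 CPM in WT replicates 1, 2 and 3 and at 70.5, 79.8 and 60.7 CPM in Cul5 cKO replicates 1, 2 and 3. Every Cul5 cKO library was thus below every WT library, and the lowest WT library was replicate 1. The log2 fold change was -0.90 (SE 0.144, 95% interval -1.24 to -0.56, adjusted p = 0.0410 by the quasi-likelihood test of edgeR, adjusted by Benjamini-Hochberg for all genes tested), or 53.7% of the WT level. The call held without WT replicate 1 (edgeR adjusted p = 0.0301) but was lost when any other library was left out. The edgeR adjusted p was 0.153 and 0.158 without WT replicates 2 and 3. Without Cul5 cKO replicates 1, 2 and 3 it was 0.0734, 0.0743 and 0.168. In all of these fits the log2 fold change stayed between -1.01 and -0.78. Itga4 also missed the threshold with counts scaled from TPM (edgeR adjusted p = 0.0583) and with limma on the authors' log2 CPM table (0.0790). The same held for limma on TPM logged with a pseudocount of 1 (0.128) or 0.1 (0.122). With DESeq2 it was far past the threshold (2.68e-07). Nearly all of the gene's counts, at least 97.7% in every library, were assigned to 1 coding transcript. The gene lies at chr2:79255426-79333123 (GRCm38, plus strand). This transcript shares 1124 exonic bases with Cerkl on the opposite strand, which held 11 to 60 counts where Itga4 held 606 to 3063. Cerkl was lower in Cul5 cKO as well, without overlap in CPM (log2 fold change -1.32, edgeR adjusted p = 0.120). Whether reads of 1 of these genes were assigned to the other was not tested. Whether the libraries kept strand is not given in the sources used here.

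The upstream sequences of Itga4 and of the genes of its 2 β partners are shown because this α chain carried the 1 call while neither partner passed. Each is the 250 bases before the start of the gene in RefSeq's GRCm38.p6 annotation, read in the direction of the gene, and the capitals mark the 1 match found to the motifs searched. The regions are chr2:79255176-79255425 (plus strand), chr8:128685404-128685653 (plus strand) and chr15:102231936-102232185 (minus strand).
Itga4: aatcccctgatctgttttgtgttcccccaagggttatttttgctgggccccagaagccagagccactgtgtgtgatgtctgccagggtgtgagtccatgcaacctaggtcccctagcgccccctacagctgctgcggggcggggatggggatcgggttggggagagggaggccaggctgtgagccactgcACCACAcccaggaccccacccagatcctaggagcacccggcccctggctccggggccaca
Itgb1: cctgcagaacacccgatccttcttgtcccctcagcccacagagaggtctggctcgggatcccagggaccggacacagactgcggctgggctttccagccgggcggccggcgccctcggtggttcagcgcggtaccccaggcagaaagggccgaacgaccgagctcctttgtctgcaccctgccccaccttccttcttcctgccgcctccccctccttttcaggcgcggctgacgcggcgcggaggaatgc
Itgb7: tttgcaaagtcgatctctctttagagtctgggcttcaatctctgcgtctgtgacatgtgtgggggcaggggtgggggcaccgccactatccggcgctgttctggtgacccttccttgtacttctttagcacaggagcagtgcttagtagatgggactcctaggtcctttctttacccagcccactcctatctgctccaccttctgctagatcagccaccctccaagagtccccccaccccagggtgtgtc
The RefSeq table held an upstream sequence for 5 of the 10 members, which were Itga4, Itgav, Itgb1, Itgb8 and Itgb7. On both strands, these were searched for TTCNNNNGAA and TTCNNNGAA, letters that STAT factors can bind, which occur in 5.85% and 7.02% of all 32851 upstream regions of this length, and for AGATAA, bound by GATA factors (9.99%), GTCTAGAC, bound by SMADs (0.167%), and CCGGAAG, bound by ETS factors (6.91%). None of these letters occurred in the 5 windows. TGTGGT, bound by RUNX factors and present in 14.0% of all regions, matched in Itga4 alone, as ACCACA from 60 to 55 bases before the start. A match of this kind is a description of the letters and not of binding.

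Itgb1 encodes β1, the partner of α4 in VLA-4 and of α6 in the laminin receptor. It stood at 139, 153 and 139 CPM in WT replicates 1, 2 and 3 and at 159, 192 and 200.3 CPM in Cul5 cKO replicates 1, 2 and 3. In CPM all 3 Cul5 cKO libraries were above all WT libraries, with Cul5 cKO replicate 1 the closest. In summed TPM Cul5 cKO replicate 1, at 60.5, was below WT replicate 2, at 60.9. The log2 fold change was 0.35 (SE 0.0987, 95% interval 0.12 to 0.58), with an edgeR adjusted p of 0.119, which did not pass, whereas DESeq2 gave 0.0386. Itgb7, whose product pairs with α4 and αE, was between 109 and 116 CPM in WT and at 94.4, 102 and 89.5 CPM in Cul5 cKO replicates 1, 2 and 3. In CPM every Cul5 cKO library was below every WT library, and the SE was the smallest of the 9 members tested. The groups of Itgb7 overlapped in summed TPM and in the authors' log2 CPM. Its log2 fold change was -0.24 (SE 0.0709, 95% interval -0.40 to -0.07), with an edgeR adjusted p of 0.133, which became 0.0496 when replicate 1 was given a term of its own. The Itgb1 gene is at chr8:128685654-128733200 (plus strand) and the Itgb7 gene at chr15:102215995-102231944 (minus strand).

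Itga6 encodes α6, which pairs with β1 to bind laminin. It stood at 104, 131 and 151 CPM in WT replicates 1, 2 and 3 and at 81.7, 96.1 and 76.6 CPM in Cul5 cKO replicates 1, 2 and 3, again without overlap. The log2 fold change was -0.59 (SE 0.145, 95% interval -0.93 to -0.26), with an edgeR adjusted p of 0.102 and a DESeq2 adjusted p of 0.00328, and without WT replicate 1 it was -0.72 with an adjusted p of 0.0419. Across the 6 libraries Itga6 ranked in the same order as Itga4, a likeness noticed after the values were seen. The order ran from WT replicate 3 down through WT replicates 2 and 1 to Cul5 cKO replicates 2, 1 and 3. It was not particular to these members, as Cerkl and the adaptor gene Skap1 had the same order in CPM. The share of all genes with this order was not counted. Itga6 and Itga4 are both on chromosome 2, Itga6 at chr2:71745616-71858416 and thus at a distance from Itga4. The transcript first listed for Itga6, which is coding, held 56.5% to 59.4% of its counts in WT and 53.9% to 56.6% in Cul5 cKO. A non-coding transcript of 2721 bases held 34.2% to 36.3% in WT and 35.2% to 37.6% in Cul5 cKO.

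Replicate 1 of either genotype bore on these members. With replicates 2 and 3 alone, 4 members were called, beside 8.83% of the 13055 genes tested in that fit. These were Itga4 at a log2 fold change of -1.01 (edgeR adjusted p = 0.0194), Itga6 at -0.69 (0.0315), Itgb1 at 0.42 (0.0272) and Itgb8, which was not tested in the whole series and held few counts. A term for replicate 1 in the fit of all 6 libraries called 5 members, beside 13.1% of all genes: Itga4, Itga6, Itgb1, Itgb7 and Itgav. With 2 libraries in each group, and a choice made with these data known, this is an alternative and not the main result.

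**Figure D3:**
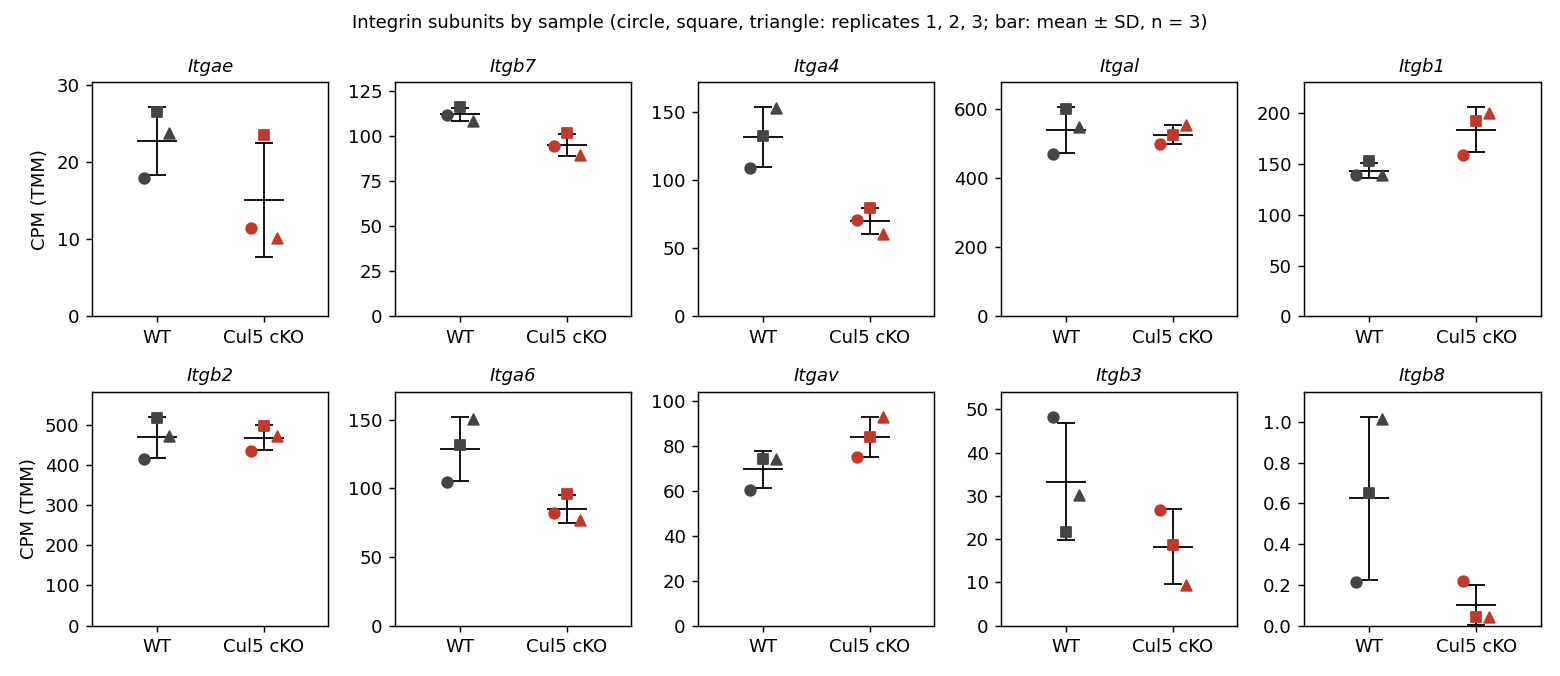
CPM of each member by library, with WT and Cul5 cKO replicates as separate points and bars at the mean ± SD (n = 3). Itga4, Itga6 and Itgb7 have all Cul5 cKO points below the WT points, Itgb1 and Itgav have them above, and the groups of the other members overlap.

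Itgae, which encodes αE (CD103), was lower on average in Cul5 cKO but did not pass. It stood at 17.9, 26.5 and 23.8 CPM in WT replicates 1, 2 and 3 and at 11.5, 23.6 and 10.2 CPM in Cul5 cKO replicates 1, 2 and 3. Cul5 cKO replicate 2 lay among the WT libraries and the other 2 lay below all of them. The log2 fold change was -0.59 (SE 0.327, 95% interval -1.35 to 0.18, edgeR adjusted p = 0.350), an interval that holds no change and also a larger fall than that of Itga4. Without Cul5 cKO replicate 2 it was -1.06 with an adjusted p of 0.106, and without Cul5 cKO replicate 3 it was -0.37. Cul5 cKO replicate 2 is also the library with Cpa3 at 13.8 CPM and Mcpt8 at 9.86 CPM, proteases of mast cells and basophils that were at most 0.356 CPM in every other library, and the part of such cells in the Itgae level was not tested. Of the counts assigned to Itgae, a coding transcript held 60.5% to 64.9% in WT and 64.3% to 73.3% in Cul5 cKO, and a transcript with a retained intron held the rest. The coding transcript alone gave a log2 fold change of -0.42. The gene is at chr11:73090583-73147446 (plus strand).

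Among the genes whose levels most resembled those of Itgae over the 6 libraries, out of 8694 genes with a mean of at least 10 CPM, were Sipa1l1 (Pearson r of log2 CPM 0.990) and Usp11 (0.990). For Itgb7 they were Zfp317 (0.988), Tmem64 (0.987) and Gprin3 (0.987). With 6 libraries and so many genes, values of this size are a description of these libraries.

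Itgal and Itgb2, the chains of LFA-1, did not differ detectably. Itgal was at 470.1, 601 and 548 CPM in WT replicates 1, 2 and 3 and at 499.7, 524 and 556 CPM in Cul5 cKO replicates 1, 2 and 3. Itgb2 was at 415, 517 and 473 CPM in WT replicates 1, 2 and 3 and at 435, 496 and 473 CPM in Cul5 cKO replicates 1, 2 and 3. For both genes the Cul5 cKO values lay within the range of WT. The 95% interval of the log2 fold change was -0.26 to 0.19 for Itgal (edgeR adjusted p = 0.870) and -0.22 to 0.21 for Itgb2 (adjusted p = 0.994), so a change of the size seen for Itga4 lies outside both intervals. Itgal is at chr7:127296260-127335138 and Itgb2 at chr10:77530252-77565708, both on the plus strand.

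Itgav, Itgb3 and Itgb8 encode αv and 2 of its partners. Itgav was at 60.2, 74.3 and 74.4 CPM in WT replicates 1, 2 and 3 and at 75.0, 84.1 and 92.9 CPM in Cul5 cKO replicates 1, 2 and 3. The groups were separated by under 1 CPM, between WT replicate 3 and Cul5 cKO replicate 1. The log2 fold change was 0.28 (SE 0.114, 95% interval 0.01 to 0.54, edgeR adjusted p = 0.222), and with a term for replicate 1 the adjusted p was 0.0267. On the TPM scale the direction turned, with -0.03 by limma on log2(TPM + 1), and it also turned by limma on the authors' log2 CPM. A coding transcript of 444 bases was at 2.85, 2.97 and 10.8 TPM in WT replicates 1, 2 and 3 from 11.6, 11.4 and 9.68 estimated counts, and at 0.870, 1.83 and 0 TPM in Cul5 cKO replicates 1, 2 and 3. Because it is short, a few counts weigh heavily in TPM. A coding transcript of 688 bases was at 4.01 to 9.29 TPM in WT and 6.27 to 7.58 in Cul5 cKO. The main transcript of 7054 bases was at 11.4 to 14.4 TPM in WT and at 14.4 to 17.0 TPM in Cul5 cKO. Its ranges overlapped, with 14.42 TPM in WT replicate 2 and 14.37 in Cul5 cKO replicate 1. The part of the short transcripts in the change of direction was not tested.

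Itgb3, which encodes β3, was at 48.3, 21.6 and 30.1 CPM in WT replicates 1, 2 and 3 and at 26.7, 18.7 and 9.34 CPM in Cul5 cKO replicates 1, 2 and 3. The groups overlapped, and in both genotypes replicate 1 was the highest. The log2 fold change was -0.88 (SE 0.413, 95% interval -1.85 to 0.08, edgeR adjusted p = 0.273), and it was -0.46 without WT replicate 1, -0.56 without Cul5 cKO replicate 3 and -1.26 without Cul5 cKO replicate 1. Itgb8, which encodes β8, held 5, 15 and 4 counts in WT replicates 1, 2 and 3 and 5, 1 and 1 in Cul5 cKO replicates 1, 2 and 3, or at most 1.01 CPM, and did not pass the filter. Itgav is at chr2:83724397-83806916, Itgb3 at chr11:104608000-104670476 and Itgb8 at chr12:119158022-119238802, the last on the minus strand.

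As integrins are pairs, the ratio of α to β TPM was compared for 8 pairs with an exact two-sided permutation test, which cannot go below 0.1 with 3 libraries in each group, and the p-values were adjusted over the 8 pairs. No pair passed and none could have. The ratios, and the Itgae share given below, use summed TPM and so are not values of coding transcripts alone. The sums include the short Itgb7 transcript, the non-coding Itga6 transcript and the Itgb2 transcripts annotated as bound for decay. They also include the Itgae transcript with a retained intron, which was at 2.36 to 3.97 TPM in WT. The ratio of Itga4 to Itgb1 was 0.305, 0.342 and 0.372 in WT replicates 1, 2 and 3 and 0.175, 0.168 and 0.119 in Cul5 cKO replicates 1, 2 and 3, a difference of -1.16 on the log2 scale (exact p = 0.1, adjusted 0.2). The ratio of Itga6 to Itgb1 went from 0.848, 0.981 and 1.15 in WT to 0.613, 0.586 and 0.437 in Cul5 cKO, a difference of -0.87 (exact p = 0.1, adjusted 0.2). For Itga4 to Itgb7 the ratios were 0.165, 0.203 and 0.282 in WT and 0.126, 0.149 and 0.125 in Cul5 cKO, a difference of -0.66 (exact p = 0.1, adjusted 0.2). In these 3 pairs every Cul5 cKO library was below every WT library.

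The ratio of Itgal to Itgb2 lay between 0.531 and 0.607 in WT and between 0.545 and 0.609 in Cul5 cKO, with a difference of -0.01 (exact p = 1). The ratio of Itgae to Itgb7 was 0.0682, 0.101 and 0.111 in WT and 0.0519, 0.107 and 0.0531 in Cul5 cKO, overlapping through Cul5 cKO replicate 2 (exact p = 0.3). Itgav to Itgb1 and Itgav to Itgb3 overlapped as well, both with an exact p of 0.4. The ratio of Itgav to Itgb8 did not overlap either but rested on 1 to 15 Itgb8 counts, and no order is read from it. Itgb7 has both Itga4 and Itgae as partners, and Itgae made up 28.2% to 33.3% of their summed TPM in WT and 29.1%, 41.8% and 29.8% in Cul5 cKO replicates 1, 2 and 3, so that the share overlapped between the genotypes and was highest in Cul5 cKO replicate 2. The summed TPM of all 10 members was between 623 and 781 in WT and between 633 and 685 in Cul5 cKO, which also overlapped.

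**Figure D4:**
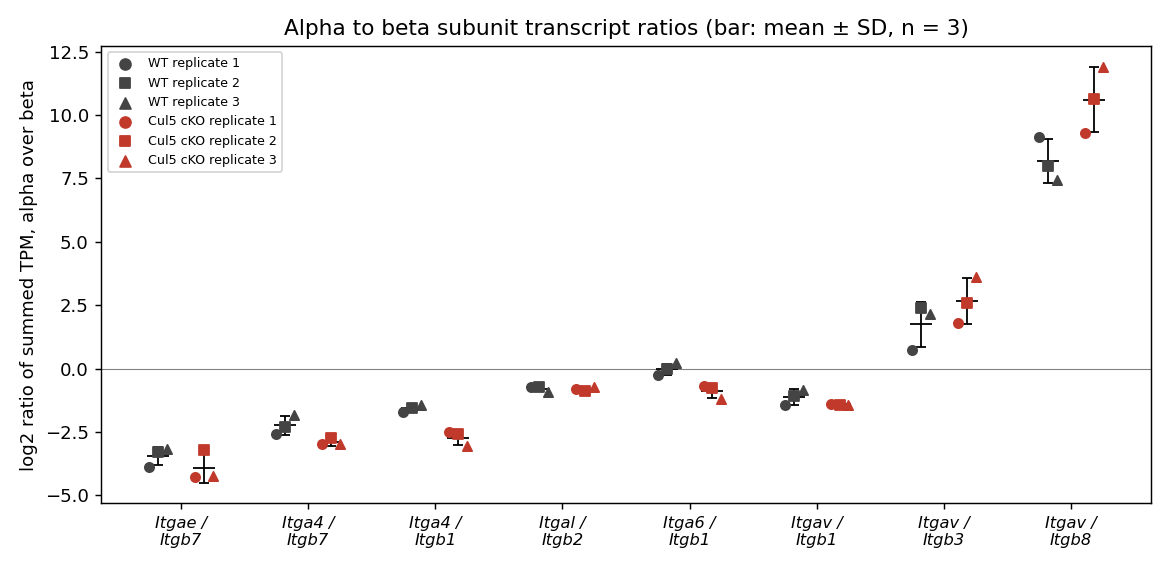
Log2 ratio of α to β chain TPM for the 8 integrin pairs, with 1 point per library and bars at the mean ± SD (n = 3) of each genotype. The Cul5 cKO points of Itga4/Itgb1, Itga6/Itgb1 and Itga4/Itgb7 are below the WT points, and those of Itgal/Itgb2 fall among them.

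Of the other 17 integrin subunits, 11 passed the filter and none was called. edgeR gave an unadjusted p under 0.05 for 3 of the 11, beside 21.3% of all genes tested, with Itgax higher and Itga3 and Itgam lower. DESeq2 called none. In this list 8 fold changes were above 0 and 3 below, with a median of 0.34, beside 6310 above and 6615 below over all genes tested. The largest were those of Itga2b, the platelet chain, at 1.68 (edgeR adjusted p = 0.344), and of Itgam, the myeloid chain of Mac-1, at -1.58 (adjusted p = 0.194). Itga2b was at 12.3 CPM in Cul5 cKO replicate 2 and at most 1.95 CPM elsewhere, in the library whose platelet markers, Itga2b among them, summed to 18.4 CPM against at most 3.59 in the others.

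Among 29 genes for the activation and adaptor proteins of integrins, 27 were tested and edgeR called 2, beside 1.03% of all genes tested. DESeq2 called 5, beside 5.36% of all genes: the same 2, with Rap1b higher and Cytip and Rasgrp2 lower. Fyb, which encodes the adaptor ADAP that links T cell receptor signals to integrins, was at 163, 159 and 216 CPM in WT replicates 1, 2 and 3 and at 90.8, 90.1 and 72.4 CPM in Cul5 cKO replicates 1, 2 and 3 (log2 fold change -1.08, SE 0.142, edgeR adjusted p = 0.0220). Fyb shares 5.75% of its 31-base stretches with Phb, and reads there may be divided between the genes. Zyx, which encodes the focal adhesion protein zyxin, was at 222, 266 and 253 CPM in WT and at 361, 357 and 358 CPM in Cul5 cKO (0.54, SE 0.0763, adjusted p = 0.0276). In both genes the groups were well apart. Over the whole list, with these 2 genes included, 15 of the 27 fold changes were above 0 and 12 below, with a median of 0.01.

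Of 17 integrin ligand genes 12 were tested and none was called by edgeR. The unadjusted edgeR p was under 0.05 for 2 (Icam1 higher and Cdh1 lower), beside 21.3% of all genes tested. DESeq2 called 1, Cdh1, beside 5.36% of all genes. The list's median log2 fold change was -0.14. Cdh1 encodes E-cadherin, the ligand of αEβ7. It was at 18.4, 19.6 and 17.5 CPM in WT replicates 1, 2 and 3 and at 4.47, 12.3 and 3.69 CPM in Cul5 cKO replicates 1, 2 and 3, without overlap (log2 fold change -1.45, edgeR adjusted p = 0.129), and as with Itgae its highest Cul5 cKO library was replicate 2. Spp1, which encodes osteopontin, a ligand of αv and α4 integrins, was at 0.72 (adjusted p = 0.470).

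Of 16 trafficking receptor genes 15 were tested and edgeR called 2, beside 1.03% of all genes tested. Fold changes were below 0 for 13 of the 15, with a median of -0.35, beside 6615 of 12925 over all genes tested. DESeq2 called 4, beside 5.36% of all genes, with Ccr8 higher and Ccr6, Ccr7 and Selplg lower. Ccr6, which encodes the receptor of CCL20, was at 14.2 ± 2.09 CPM in WT and 6.16 ± 1.18 in Cul5 cKO (SD, n = 3 each; -1.20, edgeR adjusted p = 0.0390). Ccr8, which encodes the receptor of CCL1, was at 288 ± 33.5 CPM in WT and 437 ± 8.68 in Cul5 cKO (SD, n = 3 each; 0.60, adjusted p = 0.0298). For both genes the Cul5 cKO and WT libraries did not overlap.

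Of the 11 genes for TGF-β receptors, SMADs and RUNX factors, all 11 were tested and none was called by edgeR. The unadjusted edgeR p was under 0.05 for 4 (2 higher and 2 lower), beside 21.3% of all genes tested. DESeq2 called 2, Runx3 and Tgfbr1, beside 5.36% of all genes. The largest fold changes were those of Smad3, which carries the TGF-β signal to the nucleus, at 0.62 (edgeR adjusted p = 0.209), and of Tgfbr1, a chain of the TGF-β receptor, at -0.48 (adjusted p = 0.0914). Tgfbr1 was between 297 and 402 CPM in WT and between 248 and 264 in Cul5 cKO, without overlap. Runx3, a factor known to act on Itgae in T cells, was named after its values were seen: it was at 46.7 ± 2.64 CPM in WT and 62.7 ± 4.96 in Cul5 cKO (SD, n = 3 each; 0.42, adjusted p = 0.0687), also without overlap.

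**Figure D5:**
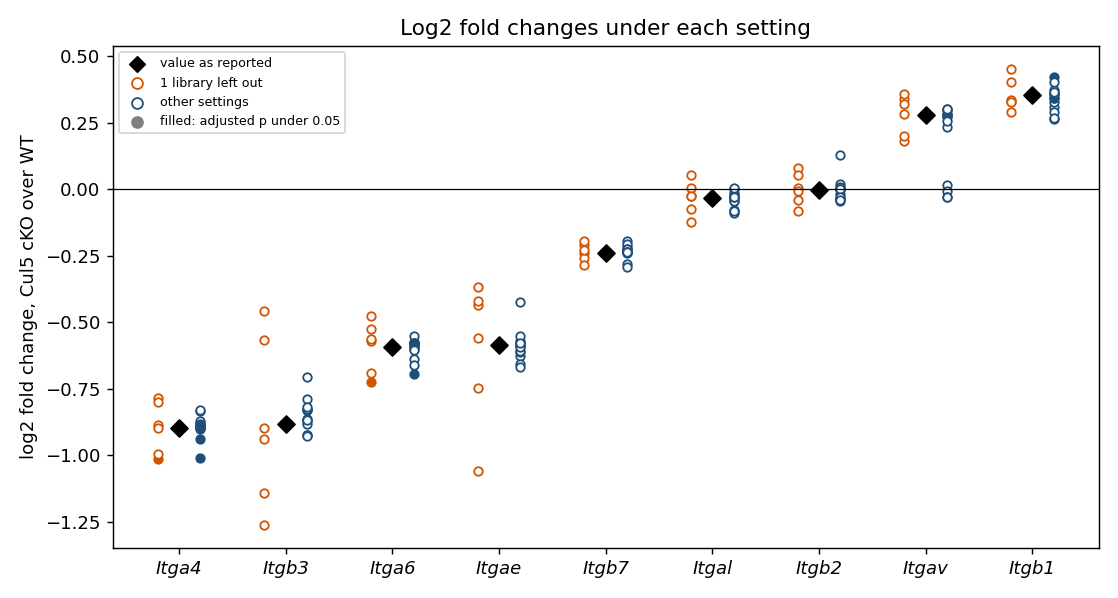
Log2 fold change (Cul5 cKO over WT) of each member tested under every setting tried: diamonds are the values as reported, and circles are other settings, with those that leave out 1 library apart and filled where the adjusted p was under 0.05. Itga4 and Itga6 stay below 0 and Itgb1 above 0 throughout, while Itgal, Itgb2 and Itgav have points on both sides of 0.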

How the data were processed

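The authors quantified single-end reads of poly-A RNA against the Ensembl transcripts of GRCm38 by kallisto (0.46.2 in the submitters' processing notes, which also name edgeR 3.34.0) and deposited estimated counts, not normalized, and TPM for 119414 transcripts in each of the 6 samples. The authors also deposited a gene-level table of log2 CPM, which lists 9 of the 10 members, with fold changes and p-values of their own comparison, which were not used. GENCODE vM21 matched 116640 transcripts (97.7%). Estimated counts were summed by gene, rounded and tested with edgeR 4.0.16 in R 4.3.3 (default expression filter, TMM, quasi-likelihood test, Benjamini-Hochberg adjustment over 12925 genes, call at an adjusted p under 0.05). Log2 fold changes are Cul5 cKO over WT. Depth is 3944803 to 23454552 counts. The coefficient of variation of gene levels between replicates, taken from edgeR's common dispersion and not a measure of depth, was 16.1%. Exact permutation tests are two-sided and cannot go below 0.1. Groups come from the genotype labels. Scripts used limma 3.58.1, DESeq2 1.42.0, Python 3.11.15, numpy 2.4.6, pandas 2.3.3, scipy 1.17.1 and matplotlib 3.10.9, and the edgeR step was tested on simulated data.

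The members and gene lists were chosen with earlier results of these data known. Named genes are all members, Cul5, the called genes of each list or otherwise the 2 of largest fold change averaging at least 1 CPM, and for Itgae and Itgb7 the 3 most correlated genes with a mean of at least 10 CPM, 1 of which is not reported here. Genes with an unadjusted p under 0.05 in the lists of other integrin subunits and ligands, genes that DESeq2 alone called, and Runx3 were named after their values were seen. Marker lists were summed in CPM and not tested. Alternatives were DESeq2, library size alone, a minimum of 10 counts per sample, any gene with 1 count, TPM-scaled counts, limma on the authors' table, on log2(TPM + 1) and also on log2(TPM + 0.1), an unadjusted p, the replicate number as a block, replicate 1 as a term, replicates 2 and 3 alone, libraries thinned to the shallowest and each sample left out. The first listed transcript of each member alone was added after these data were seen.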

Additional observations from a re-analysis of the deposited data

How the results depend on the processing

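Itga4, Itga6, Itgae, Itgb3 and Itgb7 stayed below 0 and Itgb1 above 0 under every alternative run, with log2 fold changes of -1.01 to -0.78, -0.72 to -0.48, -1.06 to -0.37, -1.26 to -0.46, -0.29 to -0.19 and 0.27 to 0.45. The number of members called was 1 as reported, 3 with DESeq2, 0 with counts scaled from TPM and 0 with limma on the authors' table, log2(TPM + 1) and log2(TPM + 0.1), 5 at an unadjusted p under 0.05, 5 with replicate 1 as a term, 4 with replicates 2 and 3 alone, and 0 to 2 with 1 library left out. In the same order (DESeq2, scaled counts, each limma fit, unadjusted, replicate 1 term, replicates 2 and 3), adaptor genes called went from 2 to 5, 0, 0, 10, 10 and 4 (0 to 2 with 1 library left out), trafficking receptors from 2 to 4, 0, 0, 6, 5 and 6 (0 to 4), and genes over the whole series from 133 to 693, 60, 42, 27 and 30, 2753, 1688 and 1153 (2 to 316), with 228 when no filter was applied. Integrin ligands went from 0 to 1 with DESeq2, with thinned libraries and with replicates 2 and 3, and to 2 at an unadjusted p and with the replicate 1 term (0 to 1 with 1 library left out). The other integrin subunits went from 0 to 3 at an unadjusted p and to 1 with the replicate 1 term (0 with any library left out). The cause of these moves was not tested. The replicate number as a block, which the pairing check did not bear out, called 3 members (Itga4, Itga6 and Itgb1), 1 other subunit, 4 adaptors, 2 ligands, 5 trafficking receptors and 848 genes in all. In that check the deviations of same-numbered samples correlated at 0.370, 0.206 and 0.0245 for replicates 1, 2 and 3, and WT replicate 3 and Cul5 cKO replicate 3 correlated best with another number.

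Itgal, Itgb2, Itgav and the Itgal to Itgb2 ratio changed sign under some alternatives. Itgal, at -0.03 as reported, was 0.0026 for its first listed transcript and -0.124 to 0.0532 with 1 library left out (above 0 without WT replicate 2 or Cul5 cKO replicate 1). Itgb2, at -0.002, was 0.0014 with DESeq2 and with the replicate block, 0.0023 with at least 10 counts, 0.018 without a filter, 0.0083 with scaled counts, 0.13 for its first listed transcript and -0.0804 to 0.0789 with 1 library left out (above 0 without WT replicate 2 or 3 or Cul5 cKO replicate 1). Itgav, at 0.28, was -0.0078 on the authors' table and -0.0279 on both log2 TPM scales. The Itgal to Itgb2 ratio difference, at -0.01, was 0.0206 with replicates 2 and 3 alone and -0.0666 to 0.0327 with 1 library left out (above 0 without WT replicate 1 or 2 or Cul5 cKO replicate 2). WT replicate 3 has the fewest reads, and its 3-count floor of 0.759 CPM is too coarse to show a change in Itgb8, while the 9 tested members were at 9.34 CPM or above in every library.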
